A study of Mus musculus with 3 samples.

Results

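The genome encodes a family of collagens, and all 44 genes of the 27998 in the deposited matrix whose symbol has the form Col, number, a, number were taken as members. They were described in single cells sorted from mouse kidneys at E14.5 for Six2GFP, a reporter of nephron progenitors whose construct the labels do not describe. Per the labels every cell came from Six2GFP+ embryos, several litters were pooled in 3 tubes, and the sort removed dead cells, debris and doublets, so no library is a single animal and cells without the reporter were not meant to be sampled. The 3 tubes are 1 group in the labels. Cells were therefore grouped by the raw counts of 5 genes, within each library. Macrophage-gate cells had at least 1 unique molecular identifier (UMI, a counted transcript molecule) of both Tyrobp and Fcer1g. Six2-positive cells had at least 1 Six2 UMI and no Wnt4, Wnt4-positive cells had at least 1 Wnt4 UMI and no Lhx1, and Lhx1-positive cells had at least 1 Lhx1 UMI. Of the 7896 kept cells, 41 met more than 1 gate. Each was placed once, in the order macrophage gate, Lhx1, Wnt4, Six2, and cells that met no gate were kept as ungated.

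Collagens are secreted or membrane-bound proteins with a triple helix of 3 chains, and the chains of a type are encoded by a single gene or by several. Fibrillar collagens build the fibres of interstitial matrix, type IV forms the network of basement membranes, FACIT collagens attach to the surface of fibrils, and multiplexins sit at basement membrane zones. In the developing kidney, nephron progenitors are mesenchymal cells next to the ureteric epithelium, and those that commit switch on Wnt4, gather into renal vesicles with Lhx1 and lay down a basement membrane of their own. Interstitial collagens are known from the stroma around them.

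The groups held 73 macrophage-gate, 1325 ungated, 6007 Six2-positive, 412 Wnt4-positive and 79 Lhx1-positive cells. Median depth was 9649, 12752, 14739, 18389 and 16238 UMIs per cell in the same order, and libraries 1, 2 and 3 held 50882927, 35264096 and 35816105 UMIs in kept cells. Levels are given as CPM, the UMIs of a gene summed over the cells of a group and library, scaled to the same total of UMIs in every sum. UMIs of this kit tag the 3′ end of transcripts and are not scaled by gene length, so levels of different genes can still differ in capture. Marker genes went with the gates. All 10 macrophage markers had UMIs in macrophage-gate cells, at a summed level of 19168 to 26375 CPM by library, against 2.75 to 4.49 CPM in Six2-positive cells. The 8 early nephron markers summed to 321 to 372 CPM in Lhx1-positive cells and 12.2 to 18.2 CPM in Wnt4-positive cells. These sums include the gate genes Tyrobp and Fcer1g, and Lhx1, which alone gave 112, 174 and 162 CPM in Lhx1-positive cells of libraries 1, 2 and 3. Outside the gates, C1qb and Csf1r averaged 5380 and 1156 CPM in macrophage-gate and 0.70 and 0.18 CPM in Six2-positive cells. Jag1 averaged 32.2 CPM in Lhx1-positive and 4.25 CPM in Wnt4-positive cells. The libraries shared 22 barcode sequences, and 36 of the 79 Lhx1-positive cells also had Six2 and no Wnt4.

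Collagen transcripts were scarce. The 44 members gave 34286 UMIs, 0.0281% of all UMIs in kept cells. UMIs were found for 42 members, and Col10a1 and Col28a1 had none. Col26a1, which encodes a secreted collagen with an EMI domain known from mouse testis and ovary, held 37.7% of collagen UMIs. Col26a1, Col4a2, Col4a1 and Col18a1 together held 68.8%, and 7 members had 1000 UMIs or more. A further 27 had fewer than 200, of which 8 had fewer than 10. Summed over all members, collagen stood at 49.9 ± 18.9 CPM in macrophage-gate, 332 ± 36.1 in ungated, 275 ± 31.0 in Six2-positive, 305 ± 22.4 in Wnt4-positive and 314 ± 52.1 in Lhx1-positive cells (SD, n = 3 libraries each). Only the macrophage-gate sums lay apart from the other 4 groups in all libraries.

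By type, the basement membrane genes Col4a1 to Col4a6 gave 9002 UMIs, the 11 fibrillar genes 6120, the multiplexins Col15a1 and Col18a1 2440, the 4 transmembrane genes 1730, the 9 FACIT genes 1533, the beaded filament genes Col6a1 to Col6a6 338 and the short-chain network genes 68. Col26a1, Col7a1 and Col28a1, which fit none of these types, gave 13055. Fibrillar genes took 27.6% of collagen UMIs in ungated cells and 15.9% in Six2-positive cells. FACIT genes took 9.47% in Wnt4-positive cells and 4.01% in Six2-positive cells.

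Col9a1 was the collagen whose level differed most between progenitors with and without Wnt4. It encodes a chain of type IX collagen, the FACIT collagen that decorates type II fibrils in cartilage, and is known to be read from an upstream and a downstream start. Its annotated gene (ENSMUSG00000026147) spans chr1:24177610-24252684 on the plus strand of GRCm38. The bases before both RefSeq starts (GRCm38.p6, plus strand) are shown because this is the one member that passed the test between these groups. The upstream window is chr1:24177360-24177609 and the downstream window, in an intron of the longer form and shown up to an exon that overlaps its end, is chr1:24194953-24195186. The starts lie 17593 bases apart, and 3′ tags cannot tell which was used. Capitals mark the single match to CTTTGA, a core of TCF/LEF motifs, on the minus strand.

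Col9a1 upstream start: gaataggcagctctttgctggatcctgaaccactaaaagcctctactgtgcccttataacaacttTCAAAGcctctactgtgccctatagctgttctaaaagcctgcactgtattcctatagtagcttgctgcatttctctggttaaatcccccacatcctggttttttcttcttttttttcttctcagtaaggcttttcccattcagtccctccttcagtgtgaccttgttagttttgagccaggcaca
Col9a1 downstream start: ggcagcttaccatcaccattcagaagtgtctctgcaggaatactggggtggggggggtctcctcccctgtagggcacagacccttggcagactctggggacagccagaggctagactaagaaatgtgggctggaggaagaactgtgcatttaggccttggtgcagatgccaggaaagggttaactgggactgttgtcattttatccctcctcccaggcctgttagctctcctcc

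The match begins 185 bases before the upstream start. The windows were searched on both strands for the letters TATAAA, for CTTTGA, which shares all but its last base with the also searched CTTTGT, and for the GC box GGGCGG, and no other match was found in either window. CTTTGA occurs in 13.8% of all 32851 RefSeq windows of 250 bases and in 9 of 38 windows of 35 collagen genes. TATAAA occurs in 12.4% of all windows and 5 of the collagen ones, GGGCGG in 32.7% and 22, and CTTTGT in 16.5% and 4. A match describes letters only.

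Col9a1 stood at 20.3, 32.6 and 21.9 CPM in the Wnt4-positive cells of libraries 1, 2 and 3, against 6.10, 7.49 and 5.44 CPM in Six2-positive cells. Every Wnt4-positive value was above every Six2-positive one. How many of all genes separate in this way was not counted, here or in the comparisons below. In the edgeR quasi-likelihood fit with library as a block, Col9a1 rose by 1.93 ± 0.19 on the log2 scale (SE; adjusted p = 2.8e-08). Of 9514 genes tested, 9.46% were called, 4.67% higher and 4.79% lower, and Col9a1 was the only call among the 8 members that passed the filter on low counts. The other 36 members did not pass that filter. Col9a1 passed it through its Wnt4-positive sums, where it is high, so its place among the 8 and their median depend on this rise. With no filter, 42 members were tested and 1 was called, with 5.52% of genes called. The members' median was then -0.18, against -0.08 for all genes. The 8 members had a median log2 change of 0.31, against -0.01 for all genes tested (DESeq2 also called Col9a1 alone, with 1.81% of genes called). Col9a1 was called in all 14 alternatives that tested it, with changes from 1.84 to 2.60. Each library is a pool of litters. With library as a block, p-values measure only how the differences between groups vary among these tubes (n = 3 libraries).

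The share of cells with a Col9a1 UMI was 26.7% in Wnt4-positive and 8.31% in Six2-positive cells. With every cell thinned to 5000 UMIs, it was 9.27% (exact 95% binomial interval 6.64% to 12.5%) in Wnt4-positive and 2.86% (2.45% to 3.31%) in Six2-positive cells, and 0 of 68 macrophage-gate cells had one. These intervals cover counting error only. Averaged over libraries, Col9a1 was higher in cells with more Wnt4 UMIs. The gate used the same counts, so this order is no independent support for the difference between the groups. Six2-positive cells, with no Wnt4 UMI, averaged 6.34 ± 1.04 CPM (SD, n = 3), 280 cells with 1 Wnt4 UMI averaged 17.7 ± 9.28, 61 cells with 2 averaged 30.5 ± 2.39, and 71 cells with 3 or more averaged 48.2 ± 25.0. In library 3 the level was 33.3 CPM at 2 Wnt4 UMIs and 29.1 CPM at 3 or more, and in library 2 it was 28.3 CPM at 1 and 29.3 CPM at 2. Library 2 had only 7 cells in the last class, and median depth climbed along the classes, at 14739, 16892, 20500 and 24028 UMIs per cell. The classes rest on raw Wnt4 UMIs, and the part of depth in this order was not tested. Among Wnt4-positive cells, the 93 with no Six2 UMI stood at 40.8, 47.0 and 19.8 CPM in libraries 1, 2 and 3 and the 319 with Six2 at 15.6, 28.0 and 22.2 CPM, so the order held in libraries 1 and 2 and turned in library 3.

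**Figure D1:**
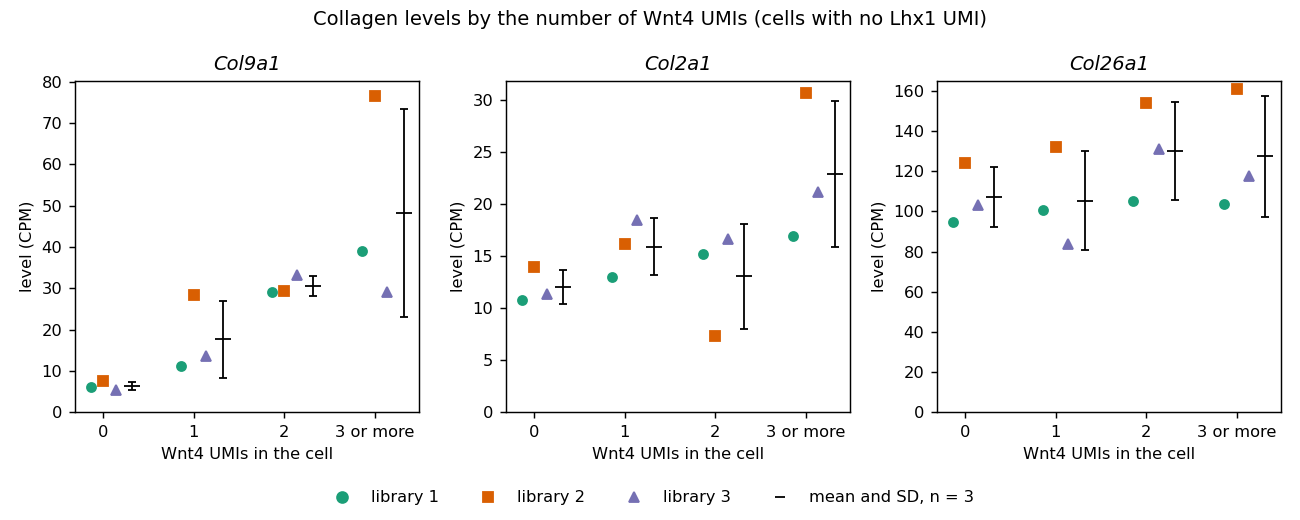
Levels of Col9a1, Col2a1 and Col26a1 (CPM) by the number of Wnt4 UMIs in a cell (0 is the Six2-positive group), with 1 symbol per library and the mean and SD over 3 libraries. Col9a1 averaged 6.34, 17.7, 30.5 and 48.2 CPM across the classes, while the libraries of Col26a1 overlap in all classes.

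The partners of Col9a1 in type IX collagen did not reach its level. Col9a2 averaged 0.71 ± 0.50 CPM in Wnt4-positive and 0.66 ± 0.15 in Six2-positive cells, and Col9a3 averaged 1.32 ± 1.18 and 0.94 ± 0.18 (SD, n = 3 each). The other FACIT genes in the file were each at or below 1.75 CPM on average in both groups. Col2a1, the type II fibril chain of cartilage, stood at 14.3, 16.6 and 19.0 CPM in Wnt4-positive cells of libraries 1, 2 and 3, against 10.8, 13.9 and 11.4 CPM in Six2-positive cells. Its groups did not overlap, but the log2 change of 0.48 ± 0.16 missed the threshold (adjusted p = 0.063, edgeR). Col18a1, a basement membrane proteoglycan whose end fragment is endostatin, changed by 0.35 ± 0.15 (adjusted p = 0.184), at 23.1, 22.6 and 27.3 CPM in Wnt4-positive and 16.2, 24.7 and 19.3 CPM in Six2-positive cells. With only these 2 groups in the fit, a setting chosen after seeing the data in which 7.06% of genes were called higher, both passed (adjusted p = 0.0222 for Col2a1 and 0.0450 for Col18a1). Without library 2, where 5.2% of genes were called higher, Col18a1 also passed (edgeR adjusted p = 0.0158).

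Col26a1 and the type IV genes made up most collagen in both groups, and none of them was called. Col26a1 stood at 101.9, 136.3 and 102.4 CPM in Wnt4-positive and 94.5, 123.8 and 103.0 CPM in Six2-positive cells. It was higher in library 2 than in the other libraries in both groups. Its log2 change of 0.08 ± 0.07 had an adjusted p of 0.561. The type IV chains Col4a1 and Col4a2, which join in the trimer of nearly all basement membranes, changed by -0.14 ± 0.13 (adjusted p = 0.603) and -0.18 ± 0.11 (adjusted p = 0.413). Col4a2 had 34.6, 27.3 and 41.3 CPM in Wnt4-positive and 38.4, 39.2 and 41.4 CPM in Six2-positive cells. Col4a1 had 28.5, 25.3 and 25.2 CPM in Wnt4-positive and 30.4, 32.1 and 25.6 CPM in Six2-positive cells. The groups overlap for both genes. Col13a1, a transmembrane collagen of cell adhesions, changed by 0.27 ± 0.17 (adjusted p = 0.369), with 13.3, 11.97 and 17.3 CPM in Wnt4-positive and 10.6, 13.7 and 12.2 CPM in Six2-positive cells.

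**Figure D2:**
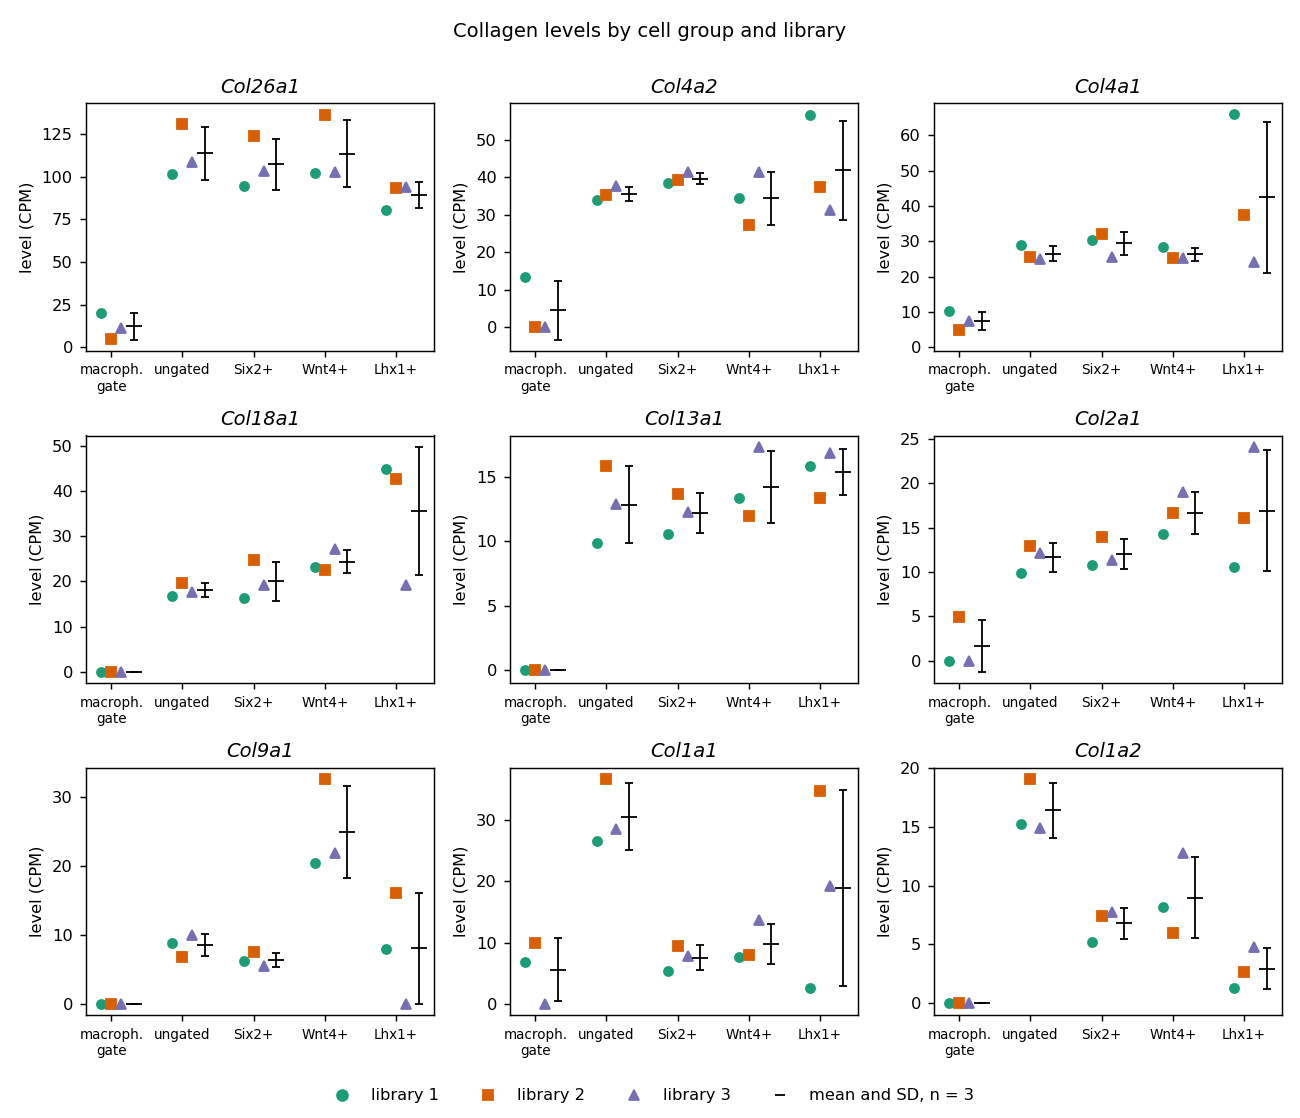
Level (CPM) of 9 collagen genes in macrophage-gate, ungated, Six2-positive, Wnt4-positive and Lhx1-positive cells, with 1 symbol per library and the mean and SD over 3 libraries. Col9a1 is highest in Wnt4-positive cells and Col1a2 in ungated cells, Col1a1 is above all Six2-positive libraries in ungated cells but reaches 34.8 CPM in 1 Lhx1-positive library, and Col18a1 and Col13a1 have no UMI in macrophage-gate cells.

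Col4a2 gave more UMIs than Col4a1 in 3 of the 5 groups. Col4a1 had 0.765 UMIs per Col4a2 UMI in Wnt4-positive, 0.745 in Six2-positive, 0.771 in ungated and 1.06 in Lhx1-positive cells. By library the ratio ran between 0.610 and 0.927 in Wnt4-positive, 0.620 and 0.818 in Six2-positive, and 0.769 and 1.16 in Lhx1-positive cells, and macrophage-gate cells had 6 Col4a1 and 4 Col4a2 UMIs. Their genes face away from each other on chromosome 8, with RefSeq starts 21 bases apart. Some members, Col4a1, Col4a2 and Col18a1 among them, overlap a gene of the opposite strand in the annotation, and no source used here states whether counting used strand. Within thinned Six2-positive cells, Col4a2 was found in 17.8% of the cells with a Col4a1 UMI and 16.9% of those without. The lesser pair Col4a5 and Col4a6 of chromosome X, also head to head, averaged 5.20 ± 0.43 and 0.74 ± 0.02 CPM in Six2-positive cells (SD, n = 3). Col4a3 and Col4a4, chains of the mature glomerular basement membrane, had 2 and 32 UMIs in all kept cells.

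Genes that build, modify or bind collagen were read from 3 lists. Of 36 synthesis and processing genes, 22 were tested between Wnt4-positive and Six2-positive cells, 3 rose and 1 fell (edgeR), with a median log2 change of -0.05 (all genes: 4.67% called higher, 4.79% lower, median -0.01). The prolyl hydroxylase subunit P4ha2 rose by 0.62 ± 0.16 (adjusted p = 0.0129), and the endoplasmic reticulum factors Fkbp10 and P3h4 rose by 0.32 ± 0.09 (adjusted p = 0.0138) and 0.30 ± 0.09 (adjusted p = 0.038). Pcolce, an enhancer of procollagen cleavage, fell by 0.76 on the log2 scale (SE 0.18, adjusted p = 0.0040). All 4 lost the call without library 3 (adjusted p of 0.354, 0.437, 0.259 and 0.159 in that order), with DESeq2 and without the library block. Without library 1, P4ha2, Fkbp10 and P3h4 were at 0.0576, 0.0514 and 0.469, and without library 2, P4ha2 and Fkbp10 were at 0.0537 and 0.0654. Of 20 other basement membrane genes, 11 were tested, and against the same shares of all genes 2 rose and 1 fell. The laminin chains Lamb1 and Lamc1 rose by 0.98 ± 0.13 (adjusted p = 3.9e-06) and 0.55 ± 0.14 (adjusted p = 0.0095), and Frem1, of the Fraser complex, fell by 0.44 (SE 0.10, adjusted p = 0.0043). The list's median was 0.02. Lamb1 kept its call in all 14 alternatives that tested it, Lamc1 lost it without library 3 (adjusted p = 0.389) and Frem1 likewise (0.059), and both lost it with DESeq2 and without the library block. Lamb1 stood at 25.2, 31.3 and 33.4 CPM in Wnt4-positive and 13.7, 17.4 and 14.6 CPM in Six2-positive cells, with no overlap. Of 10 collagen receptors, 3 were tested (Itgb1, Ddr1 and Lair1) and none was called.

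The step from Wnt4-positive to Lhx1-positive cells rests on 79 cells, 31, 29 and 19 of them in libraries 1, 2 and 3. Of 9514 genes, 1.17% were called by edgeR, 0.999% higher and 0.168% lower, and 1.04% by DESeq2. Of the 8 members 0 were called by edgeR (4 at an unadjusted p under 0.05, as were 7.94% of all genes) and 0 by DESeq2 (2 at an unadjusted p under 0.05, as were 5.98% of all genes). The members' median log2 change was 0.24, against 0.00 for all genes. These sums shared the Wnt4-positive cells with the comparison above. Col9a1 had 7.91, 16.04 and 0 CPM in Lhx1-positive cells of libraries 1, 2 and 3, against 20.3, 32.6 and 21.9 CPM in Wnt4-positive cells, and 12 UMIs in all. The lowest Wnt4-positive value was above the highest Lhx1-positive value. The log2 change of -1.61 ± 0.42 just missed the threshold (adjusted p = 0.059), and it passed in 6 of 14 alternatives, with adjusted p from 0.0041 to 0.436. Without library 2 it passed at 0.02996, and Col4a1 at 0.0391, with 1.27% of genes called higher and 0.399% lower.

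Col4a1 was at 65.9, 37.4 and 24.1 CPM in Lhx1-positive cells, against 28.5, 25.3 and 25.2 CPM in Wnt4-positive cells. The change was 0.81 ± 0.23 (adjusted p = 0.098), called in 3 of 14 alternatives, and it was 0.25 (adjusted p = 0.978) without library 1. In that library 1 cell held 16 of the 50 Col4a1 UMIs, and without that cell the level was 49.7 CPM. Col4a2 stood at 56.7, 37.4 and 31.3 CPM in Lhx1-positive cells, against 34.6, 27.3 and 41.3 CPM in Wnt4-positive cells, a change of 0.37 ± 0.24 (adjusted p = 0.819). Col18a1 stood at 44.8, 42.8 and 19.3 CPM, against 23.1, 22.6 and 27.3 CPM, a change of 0.61 ± 0.27 (adjusted p = 0.541). All of these basement membrane collagens were high in library 1 and lowest in library 3. Col26a1 had 80.5, 93.6 and 94.0 CPM in Lhx1-positive cells, all below the Wnt4-positive values, with a change of -0.33 ± 0.14 (adjusted p = 0.483). Leaving out the 41 cells of overlapping gates left 20, 10 and 13 Lhx1-positive cells in libraries 1, 2 and 3. No Wnt4-positive cell was removed. In this setting the decrease of Col26a1 was 0.72 (edgeR adjusted p = 0.0062), and Col4a1 was called higher (0.0121), with 2.34% of genes called higher and 1.2% lower. Col13a1 stood at 15.8, 13.4 and 16.9 CPM in Lhx1-positive cells (log2 change 0.12 ± 0.34, edgeR adjusted p = 0.990), and Col2a1 at 10.6, 16.04 and 24.1 CPM (-0.06 ± 0.34, adjusted p = 1). Col1a1 stood at 2.64, 34.8 and 19.3 CPM in Lhx1-positive cells, against 7.71, 7.98 and 13.6 CPM in Wnt4-positive cells (0.63 ± 0.45, adjusted p = 0.865), with 13 UMIs in 5 cells of library 2.

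Of the ureteric markers, all 8 had UMIs in Lhx1-positive cells, and likewise in Six2-positive cells. They summed to 100.2 to 377 CPM by library in Lhx1-positive, 51.6 to 63.8 CPM in Wnt4-positive and 60.3 to 81.8 CPM in Six2-positive cells. Calb1, found in 3 Lhx1-positive cells, alone gave 0, 176 and 96.4 CPM in libraries 1, 2 and 3. Of the 79 cells, 4 had 3 or more UMIs of Calb1, Gata3, Ret, Wnt11 and Wnt9b together. With those cells out, Col4a1 stood at 66.4, 34.6 and 24.9 CPM in Lhx1-positive cells. Of 11 basement membrane genes tested, 3 rose from Wnt4-positive to Lhx1-positive cells (edgeR). The laminin chains Lama4 and Lamc1 rose by 3.09 ± 0.51 (adjusted p = 4.3e-04) and 1.33 ± 0.21 (1.8e-04). Nephronectin (Npnt), an integrin ligand, rose by 1.66 ± 0.41 (0.0377). The list's median was 0.99, and 0.999% of all genes were called higher. Without library 1 they were at adjusted p of 0.073, 0.064 and 0.931, and Npnt was at 0.136 without library 3 and 0.158 without ureteric cells. Lamc1 stood at 55.4, 66.8 and 60.3 CPM in Lhx1-positive and 18.7, 31.3 and 26.0 CPM in Wnt4-positive cells. No gene of the synthesis (22 tested) or receptor lists (3 tested) was called by edgeR.

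**Figure D3:**
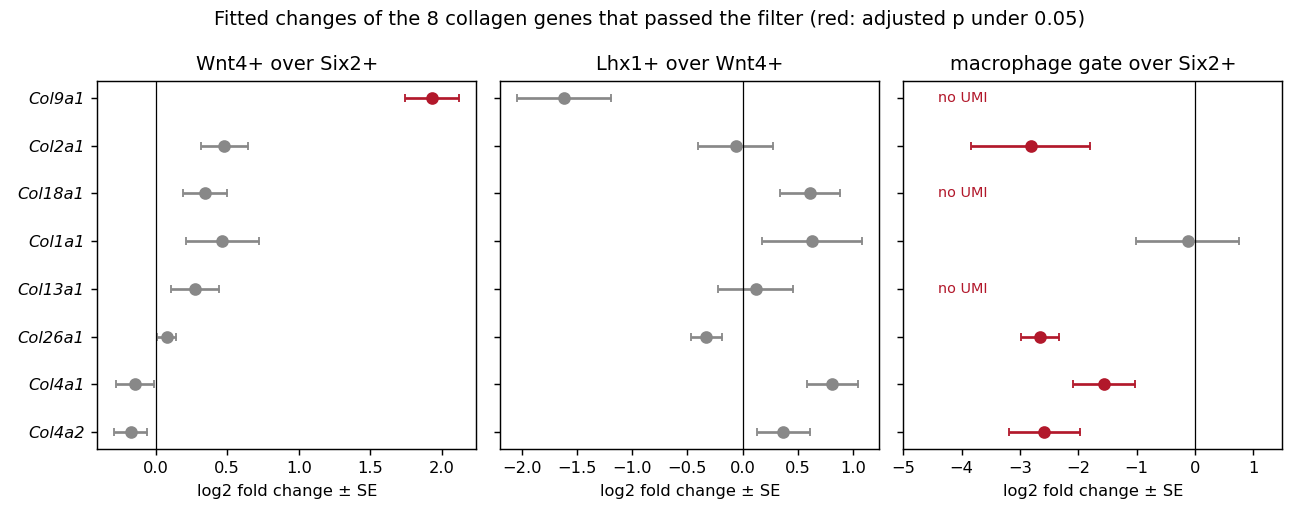
Log2 fold changes with standard errors (horizontal axis) of the 8 collagen genes tested, by comparison, with calls at an adjusted p under 0.05 in red. Only Col9a1 is called between Wnt4-positive and Six2-positive cells, none between Lhx1-positive and Wnt4-positive cells and 7 in macrophage-gate cells, where genes with no UMI there are marked in place of a fitted change.

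Macrophage-gate cells had the least collagen of the 5 groups. They held 40 collagen UMIs in 73 cells. Of these cells, 5 also met another gate and 4 had a Six2 UMI. The 8 uncommitted progenitor markers, which include Six2, summed to 39.9 to 197 CPM by library, against 1307 to 1903 CPM in Six2-positive cells. How much of the collagen in this group came from RNA of other cells was not tested. Of 9514 genes, 48.4% were called, 25.1% higher and 23.3% lower, against Six2-positive cells, with a median log2 change of -0.11, and 7 of the 8 members were called lower and none higher (edgeR; DESeq2 called 5, with 46.2% of genes called). The members' median was -2.74, or -1.99 with the 3 genes that had no UMI set at their bound. All 8 members passed the filter through other groups, so the lack of higher calls and the median depend partly on how members were admitted. With no filter, 1 of 42 members was called higher and 9 lower, with 13.4% of genes called higher and 15.6% lower. With the cells of overlapping gates left out, the members' fitted median was -9.23, with no gene set at a bound, against -0.17 for all genes. Col26a1 stood at 20.3, 4.99 and 11.2 CPM in macrophage-gate cells of libraries 1, 2 and 3, against 94.5, 123.8 and 103.0 CPM in Six2-positive cells. It fell by 2.66 on the log2 scale (SE 0.33, adjusted p = 5.6e-08) and kept the call in all 15 alternatives. A Col26a1 UMI was found in 6 macrophage-gate cells (8.22%) and 76.5% of Six2-positive cells, and after thinning in 4.41% and 41.2%. Median depth was 9649 UMIs per macrophage-gate cell and 14739 per Six2-positive cell. With the 1 macrophage-gate cell that held 3 or more stromal UMIs left out, Col26a1 stood at 20.3, 4.99 and 0 CPM in macrophage-gate cells.

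Col4a2 fell by 2.58 (SE 0.61, adjusted p = 7.8e-04), with 13.5, 0 and 0 CPM in macrophage-gate cells, and Col4a1 by 1.56 (SE 0.53, adjusted p = 0.0155), with 10.1, 4.99 and 7.45 CPM. Col2a1, with 1 UMI, fell by 2.82 (SE 1.02, adjusted p = 0.0227). Col4a1 lost its call without library 2 (adjusted p = 0.052), and Col2a1 without library 1 (0.147) or library 3 (0.091). Col18a1, Col13a1 and Col9a1 had no UMI in these cells. Against the floor of 3 counts over the group, they were at least 5.12-fold, 3.10-fold and 1.62-fold lower, and Col9a1 was not called in any fit without 1 library (adjusted p 0.075 to 0.156). Col1a1, of type I fibrils, was not called, with 6.75, 9.98 and 0 CPM in macrophage-gate and 5.37, 9.47 and 7.81 CPM in Six2-positive cells (4 UMIs, log2 change -0.13 ± 0.88, adjusted p = 0.921).

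Col15a1, the second multiplexin, ran the other way. It had 10.1, 4.99 and 11.2 CPM in macrophage-gate cells, 1 UMI in each of 7 cells, against 0.05, 0.07 and 0.14 CPM in Six2-positive cells, where 6 of 6007 cells had it. The macrophage-gate values were above all Six2-positive ones. Col15a1 did not pass the filter. With no filter, where 13.4% of genes were called higher, its change was 6.64 ± 1.304 (edgeR adjusted p = 3.0e-06). After thinning, 8.82% of macrophage-gate cells (exact 95% interval 3.31% to 18.2%) and 0.05% of Six2-positive cells had a UMI.

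Of 22 synthesis and processing genes tested, 9 rose and 8 fell in macrophage-gate against Six2-positive cells, where 25.1% of all genes were called higher and 23.3% lower, with a median of -0.75. The lysyl hydroxylase Plod1 rose by 3.44 ± 0.30 (adjusted p = 2.7e-11), Tmem38b, an ion channel of the endoplasmic reticulum, by 1.58 ± 0.56 (0.0197), Mia3, which loads procollagen into carriers, by 1.37 ± 0.29 (1.9e-04) and the prolyl hydroxylase P4ha1 by 1.34 ± 0.28 (1.6e-04). The lysyl oxidase Loxl2 fell by 3.45, Pcolce by 3.37, P3h4 by 3.24 and Fkbp10 by 2.86 (edgeR adjusted p from 3.0e-05 to 0.0042). Macrophage-gate cells held 1, 1, 3 and 4 UMIs of these genes in the same order. The sizes of these falls therefore rest on counts near the floor of 3. Tmem38b lost its call without library 2 (adjusted p = 0.277) or library 3 (0.107). Plod1 stood at 47.3, 89.8 and 82.0 CPM in macrophage-gate and 7.74, 9.92 and 7.67 CPM in Six2-positive cells. Of 3 receptors tested, Lair1, an inhibitory collagen receptor of leukocytes, was at 108, 155 and 127 CPM in macrophage-gate cells with 1 UMI in all Six2-positive cells, Itgb1 rose by 0.93 ± 0.14 (8.7e-07), and Ddr1 fell by 3.16 (SE 0.55, 1.7e-05). Of 11 basement membrane genes tested, Nid2 rose by 1.98 ± 0.48 (9.8e-04) and 7 fell, with a median of -2.50, or -1.39 with genes without a UMI at their bound. Fras1 fell by 3.29 (edgeR adjusted p = 0.0040) and Lamb1 by 3.16 (0.0062, or 0.0645 without library 1). Macrophage-gate cells held 1 UMI each of Fras1 and Lamb1, and 3 of Ddr1. Agrn and Hspg2, with no UMI in macrophage-gate cells, were at least 2.62-fold and 2.49-fold lower.

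Types I and III collagen were higher in ungated than in Six2-positive cells. This comparison was chosen after the levels were seen. Most ungated cells held progenitor transcripts. Eya1 was found in 86.8% of them and 93.4% of Six2-positive cells, and Cited1 in 56.2% and 65.0%. The 8 uncommitted progenitor markers, of which Six2 is 0 in ungated cells by the gate, summed to 1156 to 1634 CPM by library, against 1307 to 1903 CPM. Median depth was 12752 UMIs per ungated and 14739 per Six2-positive cell. Col1a1 had 26.5, 36.7 and 28.5 CPM in ungated cells of libraries 1, 2 and 3, against 5.37, 9.47 and 7.81 CPM in Six2-positive cells. Col3a1, which shares fibrils with type I, had 11.3, 22.8 and 14.1 CPM, against 2.77, 5.05 and 3.31 CPM. Col1a2 had 15.2, 19.1 and 14.9 CPM, against 5.24, 7.38 and 7.74 CPM. For all 3 genes the groups did not overlap, a separation that was not counted over all genes. In a fit of all 15 sums, 3.56% of 11114 genes were called, 1.2% higher and 2.37% lower (0.396% with DESeq2), and these 3 of 13 members tested rose, Col1a1 by 2.05 ± 0.13 (edgeR adjusted p = 1.2e-13), Col3a1 by 2.09 ± 0.17 (2.8e-11) and Col1a2 by 1.303 ± 0.14 (1.3e-07). The members' median was 0.11, against 0.00 for all genes tested. Col3a1 passed the filter through its ungated sums, where it is high, so its place among the 13 depends on this rise. As the comparison was chosen after the levels were seen, its p-values are no independent support. With no filter, where 1.05% of genes were called higher, 6 members were called, the others being Col5a2 (by 1.08, adjusted p = 0.0450), Col6a1 (1.24, 0.0094) and Col6a3 (2.07, 0.0130), each at 3.90 CPM or less in every library of both groups, and with only the compared groups fitted 8 were called, with 2.51% of genes called higher. No gene of the 3 other lists was called (26 synthesis, 4 receptor and 14 basement membrane genes tested). Without library 2, Col9a1 was called higher as well, by 0.65 (adjusted p = 0.0373), with 0.906% of genes called higher.

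The 10 stromal markers, none of them a collagen, summed to 166 to 278 CPM by library in ungated cells and 125 to 217 CPM in Six2-positive cells, with none at 0 in either. Cells with 3 or more UMIs of Pdgfra, Pdgfrb, Dcn, Lum, Postn and Twist2 numbered 34 of 1325 ungated (2.57%) and 69 of 6007 Six2-positive cells (1.15%). With these cells left out, edgeR called 0 of the 13 members (3 at an unadjusted p under 0.05, as were 10.4% of all genes) and 0.493% of all genes higher. Col1a1 then had 6.14, 11.6 and 6.95 CPM in ungated and 3.96, 7.64 and 5.04 CPM in Six2-positive cells, a change of 0.57 (adjusted p = 0.183). Col3a1 changed by 0.67 (edgeR adjusted p = 0.304) and Col1a2 by 0.39 (adjusted p = 0.448). Within each library the ungated level of Col1a1, Col1a2 and Col3a1 stayed above the Six2-positive one.

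**Figure D4:**
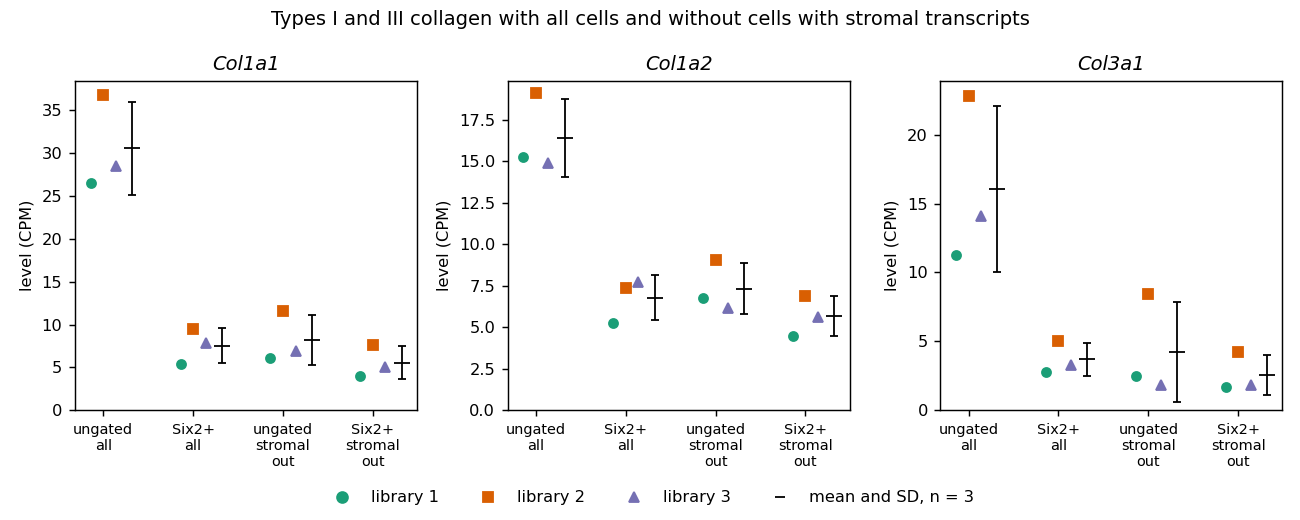
Level (CPM) of Col1a1, Col1a2 and Col3a1 in ungated and Six2-positive cells, with all cells and without cells that hold 3 or more UMIs of stromal genes; symbols are libraries, with the mean and SD over 3. Ungated cells are above Six2-positive cells in the left pairs. The groups overlap in the right pairs, where ungated cells are still the higher within each library, by little for Col3a1 in library 3 (1.803 against 1.797 CPM).

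Types I and III transcripts were packed into few cells. The 79 cells (1%) with most Col3a1 held 63.8% of its UMIs, and the same number held 54.0% of Col1a1, 39.9% of Col1a2, 26.2% of Col9a1, 11.5% of Col18a1, 7.24% of Col4a2 and 4.59% of Col26a1. Members with few UMIs also reach high shares, such as 65.5% for Col6a1 (168 UMIs in all) and 61.2% for Col5a2 (170 UMIs). A single cell held up to 59 Col1a1, 27 Col18a1 and 12 Col26a1 UMIs. Cells with 5 or more UMIs of Col1a1, Col1a2 and Col3a1 together numbered 71 (0.899% of kept cells) and held 46.5% of the UMIs of these genes. Of these, 36 were Six2-positive, 30 ungated, 3 Wnt4-positive, 2 Lhx1-positive and none macrophage-gate. At least 3 stromal UMIs were found in 45 of the 71 and in 24 of the 1196 cells with 1 to 4 of these collagen UMIs. Col1a1, Col1a2 and Col3a1 made up 48.9%, 24.2% and 26.9% of the collagen UMIs of these genes in the 71 cells, against 41.1%, 41.8% and 17.1% in the 1196. In thinned Six2-positive cells, Col3a1 was found in 13.9% of cells with Col1a1 and 0.916% of those without, and in thinned ungated cells in 30.4% and 1.16%. The ratio of Col1a1 to Col1a2 UMIs was 1.84 in ungated and 1.11 in Six2-positive cells.

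**Figure D5:**
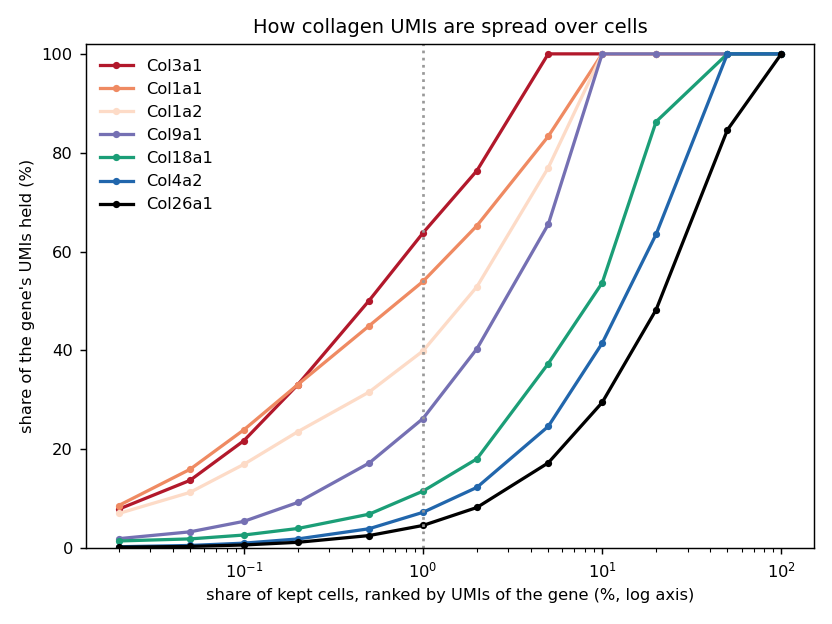
Share of a gene's UMIs (%) held by the cells with most of them, against the share of kept cells (%, log axis), for 7 collagen genes. At 1% of cells (dotted line), Col3a1 and Col1a1 reach 63.8% and 54.0%, and Col4a2 and Col26a1 reach 7.24% and 4.59%.

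The 36 members outside the 8 tested in gated cells stayed low. In Six2-positive cells, 34 of them had UMIs, 12 averaged 1 CPM or more and their median was 0.44 CPM, with Col1a2 the highest at 6.79 ± 1.35 CPM (SD, n = 3). Col4a5 (5.20 ± 0.43), Col11a1 (4.79 ± 0.29), Col3a1 (3.71 ± 1.19) and Col27a1 (3.61 ± 0.20) came next in order, and neighbours in it overlap within their SDs. In Wnt4-positive cells 26 of the 36 had UMIs, in Lhx1-positive cells 17 and in macrophage-gate cells 7. Col11a1 and Col5a1, minor fibrillar chains, averaged 4.38 ± 2.29 and 2.07 ± 0.46 CPM in Wnt4-positive cells and 4.79 ± 0.29 and 2.14 ± 0.31 in Six2-positive cells. Col11a2, of type XI, averaged 0.75 ± 0.39 CPM in Wnt4-positive and 1.81 ± 0.39 in Six2-positive cells, and every Wnt4-positive library was lower, with 7 UMIs in all and no test. Col14a1 had 3 UMIs, all in library 3, in macrophage-gate cells. The sparse counts set the limit for these genes, and 0 UMIs in the 73 macrophage-gate cells allows up to 4.11% of cells with a UMI (3 counts of 73), which does not limit the share of cells that express a gene.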

How the data were processed

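UMI counts per gene and cell were deposited by the authors as whole numbers, with Cell Ranger 1.3.1 and the mm10 build named in the submitters' processing notes, in 1 matrix that joins 3 libraries of the 10x version 2 kit, told apart by the suffix of the barcode (1, 2 or 3). Which label belongs to which suffix, and any filter before deposit, are not given in the sources used here. Cells with at least 1000 detected genes, at most 10% mitochondrial and at most 1% haemoglobin UMIs were kept (7896 of 7924 barcodes). Doublets were not removed; leaving out the 6% of cells per library with the highest Scrublet scores (scanpy 1.11.5, expected share 3%) was an alternative.

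UMIs were summed per library and group. edgeR 4.0.16 (R 4.3.3; quasi-likelihood test, TMM scaling, filterByExpr by group, Benjamini-Hochberg adjustment over all genes tested, threshold 0.05, two-sided) was fitted to the 12 sums of the gated groups, with library as a block because sums of 1 library come from the same tube, a pairing that follows from the barcodes. The ungated comparison used all 15 sums. The gate genes are no results. DESeq2 1.42.0 was an alternative, as were DESeq2 size factors, no filter, no block, each library left out, thinning to 5000 UMIs per cell before gating (thinned shares of cells keep the original groups), gates of 2 UMIs, overlapping gates out, and barcodes with 10 or more A and T of 16 bases out. Fits of only the compared groups, and without cells with stromal or ureteric transcripts, were added after seeing the data. The test was tried on simulated counts with known changes. Gene positions come from GENCODE M21 (all 44 members matched).

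Members and lists were chosen with earlier results of these data known. Library values are given for members past the threshold in a comparison, members at 10 CPM or more in a gated group, and those of the added ungated comparison; of other lists, up to 4 genes per direction with the largest change past the threshold are named, and other values are counts and ranges. Folds against groups without a UMI use a floor of 3 counts over the group, and intervals cover counting error only.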

Additional observations from a re-analysis of the deposited data

How the results depend on the processing

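Col9a1 in Wnt4-positive cells and Col26a1 in macrophage-gate cells kept their direction and call under every alternative that tested them, and none of 205 values of single genes turned sign. The count of members called was 1 in Wnt4-positive against Six2-positive cells. It was 3 with only the compared groups fitted, 0 after thinning, where cells were gated anew on the thinned counts and only 1 member was tested, and 1 to 2 with a library left out. In Lhx1-positive against Wnt4-positive cells the count was 0. It was 1 without stromal cells, without ureteric cells, without the highest doublet scores and with no filter, 2 with gates of 2 UMIs and with overlapping gates out, and 0 to 2 with a library left out. In macrophage-gate cells it was 7, with 1 after thinning, 4 with gates of 2 UMIs (4 members tested) and 5 to 6 with a library left out. In ungated cells it was 3, with 0 after thinning (2 members tested), 0 without stromal cells, 6 with no filter (adding Col5a2, Col6a1 and Col6a3), 8 with only the compared groups and 3 to 4 with a library left out. Thinning and stricter gates left fewer members past the filter; the cause of the other differences was not tested.

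Without the library block, the members called were 1, 0, 5 and 2 in the same order of comparisons, Col9a1 staying called in Wnt4-positive cells (adjusted p = 0.0048), Col4a1 and Col9a1 lost in macrophage-gate cells and Col1a2 lost in ungated cells. Over all genes, the calls were 900 with the block and 60 without it in Wnt4-positive cells, 111 and 50 in Lhx1-positive cells, 4602 and 4191 in macrophage-gate cells and 396 and 2 in ungated cells. DESeq2 called 172, 99, 4400 and 44 genes in the same order of comparisons, against 900, 111, 4602 and 396 with edgeR. With only the compared groups fitted, 1631 genes were called in Wnt4-positive and 827 in ungated cells. No filter gave 221 calls and overlapping gates out 328 in Lhx1-positive cells, and gates of 2 UMIs gave 598 in Wnt4-positive cells. After thinning there were 135, 5, 2127 and 1 calls. Leaving out a library gave 250 to 1050 calls in Wnt4-positive, 50 to 171 in Lhx1-positive and 156 to 346 in ungated cells. With DESeq2 size factors, 139 genes were higher and 168 lower in ungated cells, against 133 and 263 with TMM. Low counts limit most members: 36 of 44 did not pass the filter in the gated groups, and 42 were tested with no filter.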
